A study of Mus musculus with 32 samples.

Results

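The aryl hydrocarbon receptor (AHR) and Cyp1 genes examined here were 7 genes, chosen by symbol: Ahr, its partner Arnt, the P450 genes Cyp1a1, Cyp1a2 and Cyp1b1, and the feedback genes Ahrr and Tiparp. All 7 were found among the 41585 gene rows of both deposited tables of liver RNA-seq counts, 1 table for each sex. AHR is a receptor that waits in the cytoplasm with chaperones, binds planar aromatic compounds and some products of tryptophan, and moves to the nucleus, where it pairs with ARNT and turns on genes such as the Cyp1 genes. In the liver, CYP1A2 is an abundant enzyme of hepatocytes around the central vein, CYP1A1 is low until an AHR ligand is present, and CYP1B1 is mostly an enzyme of tissues other than hepatocytes. AHRR (the AHR repressor) and TIPARP (an ADP-ribosyltransferase) are AHR targets that dampen the receptor.

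The 32 libraries came from C57BL/6 mice (C57Bl/6J in the study's methods), either purchased wildtype (WT) or Cyp2b-null. The Cyp2b-null mice lack Cyp2b9, Cyp2b10 and Cyp2b13 after CRISPR/Cas9 deletion. By the study's methods the mice were aged 10 weeks when an 8 week diet began, while its timeline allows some to be slightly younger. The diets were normal chow (ND) or CDAHFD, a fatty diet lacking choline and built on free amino acids, with 62% fat and 0.1% methionine, which leads to fatty liver, inflammation and fibrosis. Each of the 8 groups of diet, genotype and sex had 4 libraries of whole liver, so all cell types of the organ were measured together. The sources do not say that the 4 libraries of a group came from separate mice, so the p-values measure the spread between libraries.

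The libraries held 2906411 to 10166959 counts each, and 3 counts, taken as the floor, were worth 0.249 to 1.15 CPM (a count scaled by the library's total and its TMM factor). Levels are CPM, and differences are log2 fold changes from edgeR, each with its standard error (SE). A gene was called when its p, adjusted over all genes tested, was under 0.05. The deleted genes separated the genotypes as labelled: Cyp2b9 had 683 to 3530 counts in WT female libraries and 2 to 8 in Cyp2b-null ones. In males, where Cyp2b9 on ND did not separate the genotypes, Cyp2b10 did so on ND, with 33 to 97 counts in WT libraries and 1 to 9 in Cyp2b-null libraries. The 6 hepatocyte markers summed to 52840 to 187100 CPM in every library.

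The receptor complex recognises a short core, GCGTG, which reads CACGC on the other strand. The 250 bases before the start site were available for 6 of the 7 genes, all but Ahr (RefSeq, GRCm38.p6), and 5 of those 6 held the core at least once, against 28.2% of the 32851 mouse promoters of the same length. Ahrr held it 3 times. The 3 stretches below belong to the genes whose expression was called different between diets, in lower case with each core in capitals.
Cyp1b1, chr17:79715062-79715311, minus strand: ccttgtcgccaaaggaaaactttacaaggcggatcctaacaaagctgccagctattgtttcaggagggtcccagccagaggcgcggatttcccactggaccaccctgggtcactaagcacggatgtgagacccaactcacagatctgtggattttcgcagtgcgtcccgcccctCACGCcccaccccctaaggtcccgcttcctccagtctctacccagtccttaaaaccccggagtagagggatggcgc
Cyp1a2, chr9:57683656-57683905, minus strand: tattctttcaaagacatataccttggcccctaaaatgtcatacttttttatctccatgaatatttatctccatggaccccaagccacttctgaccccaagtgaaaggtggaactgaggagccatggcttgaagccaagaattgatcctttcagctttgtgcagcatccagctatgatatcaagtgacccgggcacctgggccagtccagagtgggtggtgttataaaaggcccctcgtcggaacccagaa
Tiparp, chr3:65528197-65528446, plus strand: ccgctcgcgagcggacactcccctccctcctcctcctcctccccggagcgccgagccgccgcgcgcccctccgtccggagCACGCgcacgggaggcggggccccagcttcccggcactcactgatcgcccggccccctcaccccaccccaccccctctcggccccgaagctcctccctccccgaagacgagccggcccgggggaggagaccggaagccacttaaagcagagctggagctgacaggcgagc
The core of Cyp1b1 began 76 bases before the start site and that of Tiparp 170 bases before it, both on the strand opposite to the gene. Cyp1a2 had no core in this window, and its start site lies 13958 bases from that of Cyp1a1 on the opposite strand. A match is a string of letters and was not examined for binding.

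Corrected for transcript length, the 7 genes spanned a wide range in these livers. The mean over the 32 libraries was 304 CPM per kb for Cyp1a2, 8.77 for Ahr, 7.75 for Arnt, 1.97 for Tiparp, 0.490 for Cyp1a1, 0.359 for Cyp1b1 and 0.0533 for Ahrr. Cyp1a2 was thus far above the other 6 on the scale per kb, and Ahr and Arnt were close to each other. The lengths were those of the longest coding transcript of GENCODE vM21, from 1940 bases for Cyp1a2 to 5548 for Ahr. When the 8 groups were ordered by mean CPM for each gene, every group overlapped the next one in that order, for all 7 genes.

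**Figure D1:**
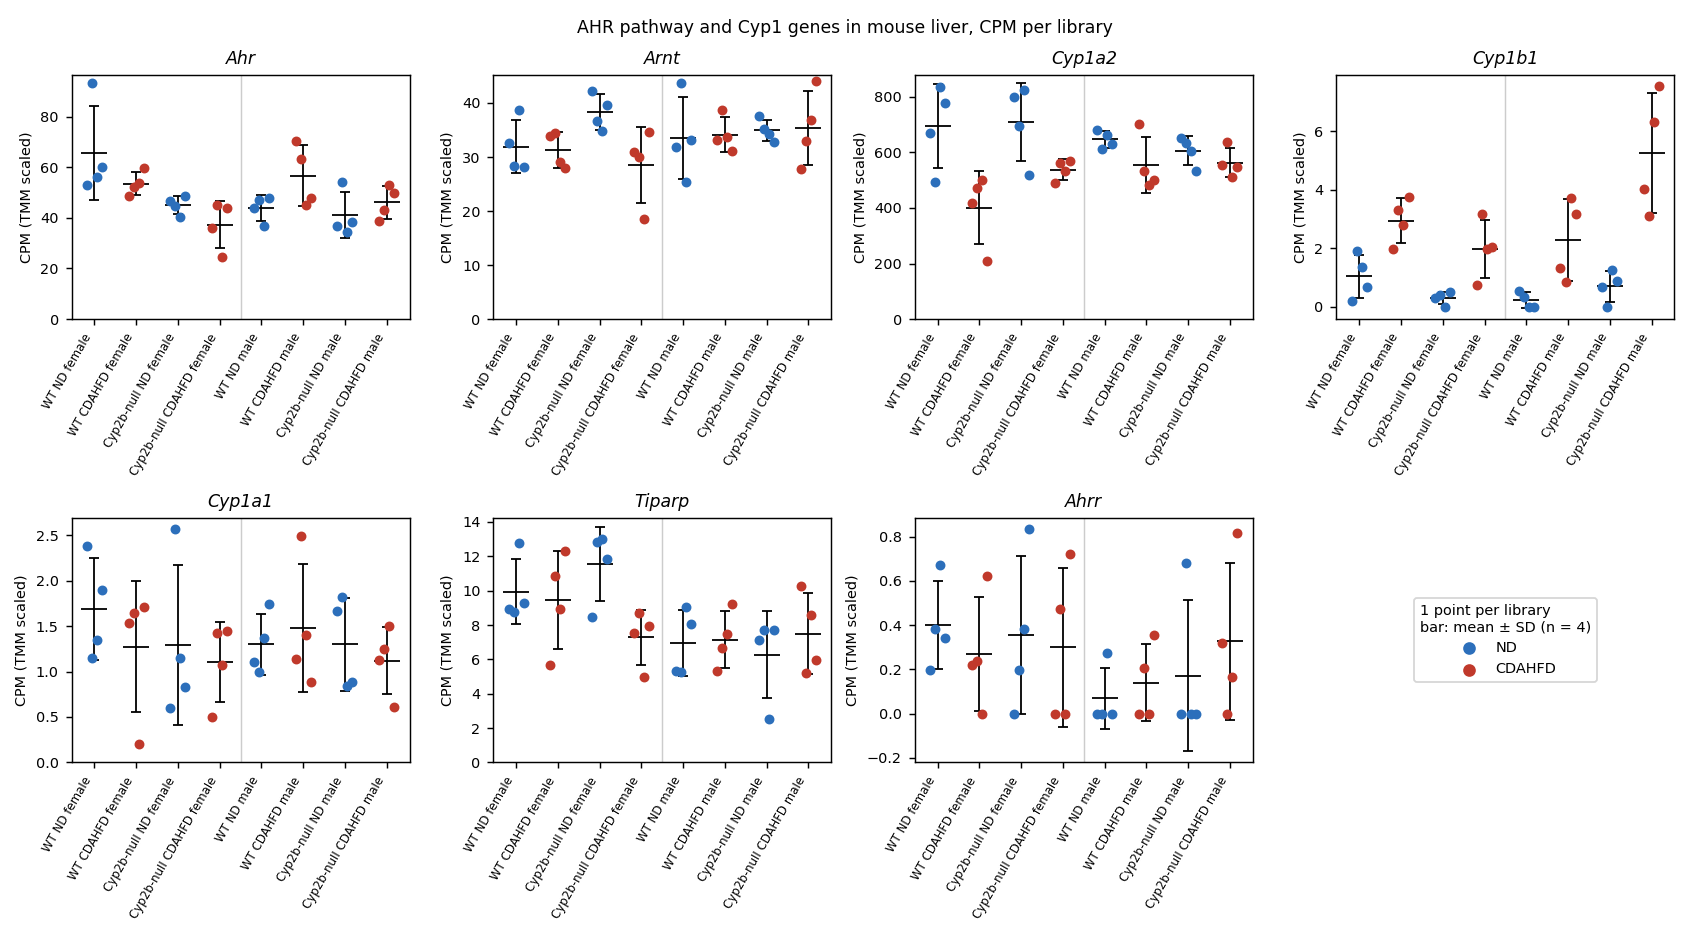
CPM (TMM scaled) of the 7 genes in each library, by group. Points are libraries (blue, ND, and red, CDAHFD), and bars are the mean ± SD of 4 libraries; Cyp1b1 is higher in the red points of every pair of diets, while Ahrr stays between 0 and 0.835 CPM and Cyp1a1 between 0.199 and 2.57 CPM.

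Cyp1b1 was called higher on CDAHFD in all 4 combinations of genotype and sex. It entered the tests through its CDAHFD libraries alone, as set out below, so these calls are not an independent test. Of the 7 genes, 5 (Ahr, Arnt, Cyp1a2, Cyp1b1 and Tiparp) had enough counts to be tested in both sexes. In WT females, Cyp1b1 was called higher and Cyp1a2 lower, while 24.1% of the 13226 genes tested were called in either direction. In Cyp2b-null females, Cyp1b1 was called higher and Tiparp lower, beside 30.8% of all genes. In WT and in Cyp2b-null males, Cyp1b1 alone of the 5 was called, beside 33.0% and 37.4% of the 13460 genes tested.

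Cyp1b1, which oxidises steroids, retinoids and polycyclic aromatic compounds, was low on ND. ND-fed WT females had 0.198, 1.91, 1.34 and 0.688 CPM, and CDAHFD-fed WT females had 1.97, 3.30, 2.79 and 3.74 CPM. ND-fed Cyp2b-null females had 0.302, 0.396, 0 and 0.501 CPM, and CDAHFD-fed Cyp2b-null females had 0.753, 3.16, 1.96 and 2.05 CPM. The diets did not overlap in either genotype, although the lowest CDAHFD-fed WT female was only just above the highest ND-fed one. In Cyp2b-null females the highest ND-fed library (replicate 4) and the lowest CDAHFD-fed library (replicate 1) each had 3 counts. Only the scaling for depth set these 2 libraries apart. ND-fed WT males had 0.551, 0.330, 0 and 0 CPM, and CDAHFD-fed WT males had 1.33, 0.831, 3.73 and 3.19 CPM. ND-fed Cyp2b-null males had 0.666, 0, 1.26 and 0.884 CPM, and CDAHFD-fed Cyp2b-null males had 4.02, 3.12, 6.32 and 7.57 CPM, the highest level of the 8 groups at 5.26 ± 2.05 CPM (SD, n = 4). The diets did not overlap in males either. In WT males, however, the highest ND-fed library (replicate 1) had 3 counts and the lowest CDAHFD-fed library (replicate 2) had 4. Groups without overlap made up 26.0% (WT females), 30.8% (Cyp2b-null females), 28.4% (WT males) and 36.8% (Cyp2b-null males) of all genes tested.

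The diet effect on Cyp1b1 was 1.75 ± 0.509 (log2 fold change ± SE, adjusted p = 0.0153) in WT females, 2.50 ± 0.614 (0.004) in Cyp2b-null females, 3.35 ± 0.762 (0.00177) in WT males and 2.85 ± 0.583 (0.00056) in Cyp2b-null males. The shares of all genes called higher in these 4 comparisons were 13.9%, 16.9%, 18.0% and 20.3%. Cyp1b1 entered these fits through its CDAHFD libraries alone: the filter asked 4 of 16 libraries for 2.07 CPM (females) or 1.78 CPM (males), unscaled by TMM, and 6 of 8 CDAHFD libraries and 0 of 8 ND libraries of each sex reached it. A gene that passes in this way has to differ between the diets, so the effects without any filter are given too, and were 1.70 (adjusted p = 0.0147), 2.44 (0.00146), 3.34 (1.31e-06) and 2.84 (3.5e-08) in the same order. In fits of only the groups compared, Cyp1b1 passed the filter in Cyp2b-null males and in none of the other 3 comparisons. The counts behind the effects were small: the 4 libraries of a group together held 14 counts on ND and 61 on CDAHFD in WT females, 6 and 51 in Cyp2b-null females, 5 and 61 in WT males, and 16 and 168 in Cyp2b-null males. As ratios of these sums, scaled for depth, CDAHFD was 3.54-fold ND in WT females (exact 95% interval 1.96 to 6.85), 5.95-fold in Cyp2b-null females (2.55 to 17.0), 11.7-fold in WT males (4.76 to 37.4) and 7.27-fold in Cyp2b-null males (4.35 to 13.0). These intervals cover counting error only. The call in WT females was lost without ND-fed WT female replicate 1 (adjusted p = 0.0722, log2 fold change 1.33), ND-fed WT female replicate 4 (0.0627) or CDAHFD-fed WT female replicate 4 (0.0573), and the other 3 calls held in each of the 16 fits with 1 library left out.

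The diet effect on Cyp1b1 was not called different between the sexes. Males minus females gave 1.62 ± 0.994 in WT mice (adjusted p = 0.638) and 0.36 ± 1.14 in Cyp2b-null mice (0.9). The diet effect was not called different between genotypes, at 0.76 ± 0.837 in females (Cyp2b-null minus WT, adjusted p = 0.852) and -0.50 ± 0.969 in males (0.961). With SEs this wide, these tests do not show that the effects were alike.

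Most markers of stellate cells and fibroblasts, the collagen-producing cells of the liver, moved with Cyp1b1. The 9 markers summed to at most 188.2 CPM in the 16 ND libraries and to 420.6 to 759.0 CPM in the 16 CDAHFD libraries. Of these 9 genes, 6 were called higher in WT females, 7 in Cyp2b-null females, 6 in WT males and 8 in Cyp2b-null males, beside the shares of all genes called higher given above, and none had 0 counts in a whole group. In Cyp2b-null females and males Col1a1 rose by 4.13 and 4.05, but Lrat by only 0.10 and 0.16 and Reln by 0.23 and 0.44. Markers of macrophages and Kupffer cells moved in the same way, with 6, 6, 7 and 7 of 8 tested genes called higher and a sum of 162.6 to 628.8 CPM on ND against 890.0 to 2227 CPM on CDAHFD. In whole liver, more cells of a type and more RNA per cell cannot be told apart, and the part of these cells in the Cyp1b1 result was not tested. Of the 13869 genes whose mean reached 1 CPM, the 3 whose log2 CPM followed Cyp1b1 most closely over the 32 libraries were Loxl1 (Pearson r = 0.867), Cxcl16 (0.853) and Capn6 (0.846). With the group means removed, these correlations were 0.567, 0.572 and 0.612, and the libraries share diet, sex and depth, so they are a description only.

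**Figure D2:**
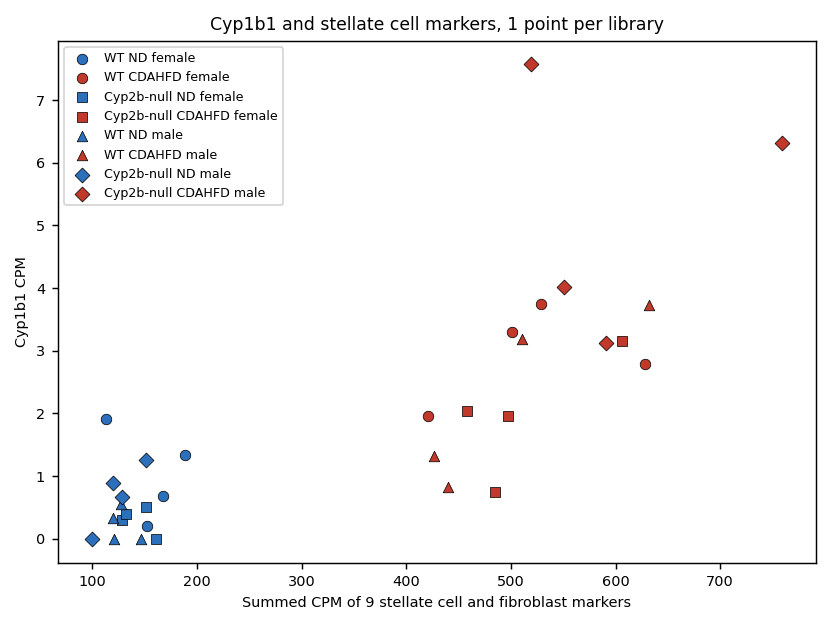
Cyp1b1 CPM (vertical) against the summed CPM of 9 stellate cell and fibroblast markers (horizontal), 1 point per library, coloured by diet with a symbol for each genotype and sex. The 16 ND libraries sit at or below 188.2 and the 16 CDAHFD libraries at 420.6 to 759.0 on the horizontal axis.

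Cyp1a2, the P450 that clears caffeine and activates arylamines, was lower on CDAHFD in WT females. ND-fed WT females had 669, 493, 836 and 780 CPM, and CDAHFD-fed WT females had 419, 471, 502 and 211 CPM. The groups overlapped by 1 library, since CDAHFD-fed WT female replicate 3 was above ND-fed WT female replicate 2, and CDAHFD-fed WT female replicate 4 was the lowest of the 32 libraries. The diet effect was -0.77 ± 0.214 (adjusted p = 0.0113, mean 401 against 694 CPM), beside 10.2% of all genes called lower. It was called in all 16 fits with 1 library left out, with log2 fold changes between -0.90 and -0.56 and adjusted p up to 0.0399, but not when counts were scaled by library size alone (-0.46, adjusted p = 0.111), a scaling that moved the median of all genes to 0.316.

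In the other 3 diet comparisons Cyp1a2 was not called. ND-fed Cyp2b-null females had 800, 696, 824 and 518 CPM and CDAHFD-fed ones 488, 564, 533 and 569 CPM, a difference of -0.37 ± 0.213 (adjusted p = 0.196). The lowest ND-fed library lay inside the CDAHFD range. ND-fed WT males had 682, 611, 663 and 632 CPM and CDAHFD-fed ones 701, 534, 483 and 499 CPM, a difference of -0.22 ± 0.125 (0.188). Replicates 2, 3 and 4 of the CDAHFD-fed WT males were below every ND-fed WT male. The other, replicate 1, was above every ND-fed WT male, and without it the difference was -0.33 (adjusted p = 0.0351). In Cyp2b-null males the difference was -0.10 ± 0.125 (0.558). The diet effect in females was not called different between genotypes (0.40 ± 0.301, adjusted p = 0.798), and in WT mice the effect was not called different between sexes (males minus females 0.57 ± 0.258, adjusted p = 0.415).

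The hepatocyte markers fell with diet beside Cyp1a2. The sum of the 6 markers was 102000 to 187100 CPM on ND and 52840 to 112300 CPM on CDAHFD, and 5, 5, 6 and 4 of the 6 were called lower in WT females, Cyp2b-null females, WT males and Cyp2b-null males, beside 10.2%, 13.9%, 15.0% and 17.1% of all genes. Markers of pericentral hepatocytes, the zone where Cyp1a2 is usually found, were mixed, with 2, 1, 0 and 3 of 8 called lower and 1, 1, 4 and 2 called higher in the same order. Of the 6 periportal markers, 5, 3, 3 and 3 were called lower and 1 was called higher in each comparison. The part of these cells in the Cyp1a2 result was not tested. The 3 genes closest to Cyp1a2 over the 32 libraries were Sardh (r = 0.781, and 0.793 with group means removed), Aldoc (0.764 and 0.680) and Gnmt (0.759 and 0.788).

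Cyp1a1, the P450 that AHR ligands induce most, stayed near the floor in every group. It had 1 to 18 counts in each library and 244 in all, or 0.199 to 2.57 CPM, and the group means lay between 1.11 (CDAHFD-fed Cyp2b-null females) and 1.69 CPM (ND-fed WT females). It did not pass the filter on low counts in the fit of either sex, but did when both sexes were fitted together and in 8 of the 16 fits of females with 1 library left out, where it was not called. Without the filter, its diet effect was between -0.48 and 0.17 in the 4 comparisons, each smaller than its SE, with adjusted p of at least 0.633. Cyp1a1 was 0.0397% to 0.813% of Cyp1a2 in CPM. The transcripts of these neighbouring paralogs share an identical run of 137 bases, and 94 of the 2648 windows of 50 bases in Cyp1a1 occur in Cyp1a2, so a few Cyp1a1 counts could be reads of Cyp1a2. This was not tested.

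Tiparp was called lower on CDAHFD in Cyp2b-null females, close to the threshold. ND-fed Cyp2b-null females had 8.45, 12.9, 13.0 and 11.9 CPM and CDAHFD-fed ones 7.53, 8.70, 4.99 and 7.95 CPM. The groups overlapped by 1 library on each side. The diet effect was -0.63 ± 0.239 (adjusted p = 0.0492), beside 13.9% of all genes called lower. The call was lost in 11 of the 16 fits with 1 library left out, with adjusted p of 0.0516 to 0.129: without replicates 1, 2 or 4 of ND-fed WT females, replicates 2 or 3 of CDAHFD-fed WT females, replicates 2, 3 or 4 of ND-fed Cyp2b-null females, or replicates 1, 3 or 4 of CDAHFD-fed Cyp2b-null females. It was also lost with scaling by library size alone (-0.37, adjusted p = 0.271) and in a fit of the groups compared alone (-0.63, 0.0596). In the other 3 comparisons Tiparp differed by -0.02 to 0.25, less than its SE each time. The diet effect in Cyp2b-null mice was not called different between sexes (males minus females 0.91 ± 0.390, adjusted p = 0.193). A gene on the other strand, 4931440P22Rik, overlaps the start of Tiparp and had at most 14 counts in a library. The strand setting of the counting is not given in the sources used here.

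Ahrr had 0 to 6 counts in each library, 44 in all, and none in 13 of the 32 libraries. No fold is given for it, and without the filter on low counts its adjusted p was at least 0.684 in the 4 diet comparisons.

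The receptor itself, Ahr, was not called in any diet comparison. ND-fed WT females had 53.2, 93.2, 56.1 and 60.2 CPM and CDAHFD-fed ones 48.7, 52.1, 53.7 and 59.7 CPM. ND-fed Cyp2b-null females had 46.8, 44.5, 40.2 and 48.6 CPM and CDAHFD-fed ones 35.9, 45.1, 24.6 and 43.8 CPM. The diet effects were -0.26 ± 0.185 (adjusted p = 0.348) and -0.24 ± 0.188 (0.354) in these females, and the ranges overlapped. ND-fed WT males had 44.0, 46.9, 36.7 and 47.8 CPM and CDAHFD-fed ones 70.4, 63.2, 45.0 and 48.0 CPM. The difference of 0.37 ± 0.164 (0.0903) was not called, and without CDAHFD-fed WT male replicate 3 it was 0.47 (adjusted p = 0.0462). In Cyp2b-null males it was 0.18 ± 0.164 (0.424). Scaled by library size alone, Ahr was called higher in WT males (0.74, adjusted p = 0.000872) and in Cyp2b-null males (0.56, 0.00811), where the medians of all genes were 0.37 and 0.363, and the signs in females turned. Males minus females in WT mice gave 0.65 ± 0.253 (adjusted p = 0.296).

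Arnt, the shared partner of AHR and the hypoxia factors, varied least. Its group means lay between 28.5 and 38.3 CPM, 1.34-fold apart, and it was not called in any comparison, although scaling by library size alone gave a call in WT males (0.42, adjusted p = 0.037). In Cyp2b-null females ND-fed libraries had 42.3, 36.6, 34.9 and 39.6 CPM and CDAHFD-fed ones 30.9, 30.1, 18.5 and 34.7 CPM. These did not overlap, as was so for 30.8% of all genes tested, but the lowest ND-fed and the highest CDAHFD-fed library were almost equal. The difference of -0.40 ± 0.168 missed the threshold (adjusted p = 0.079). Without CDAHFD-fed Cyp2b-null female replicate 4 it was -0.51 (0.0386). In the other 3 comparisons the diet effect on Arnt was between -0.002 and 0.03, smaller than its SE. CDAHFD-fed Cyp2b-null female replicate 3 had the lowest Ahr, Arnt and Tiparp of its group.

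**Figure D3:**
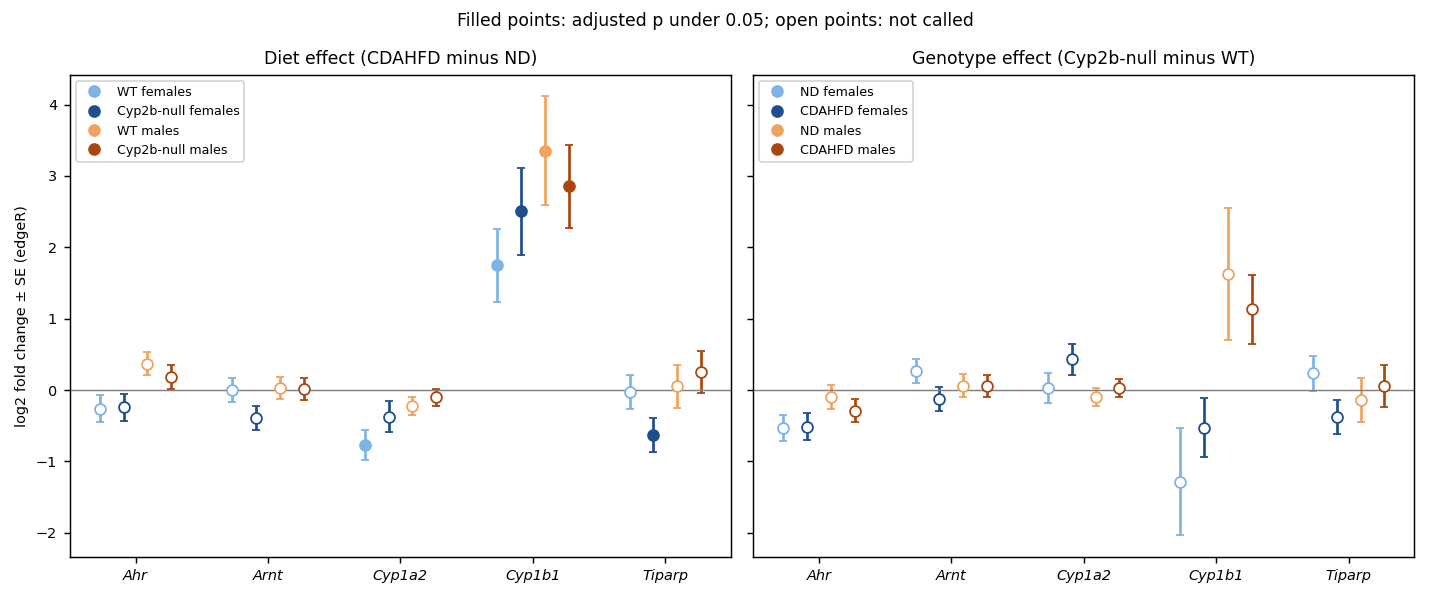
log2 fold changes ± SE from edgeR for the 5 genes tested in both sexes, for diet (left, CDAHFD minus ND) and genotype (right, Cyp2b-null minus WT), in 4 comparisons each. Filled points were called at an adjusted p under 0.05: the 4 diet effects on Cyp1b1, from 1.75 to 3.35, Cyp1a2 in WT females at -0.77 and Tiparp in Cyp2b-null females at -0.63. Cyp1b1 passed the filter on low counts through its CDAHFD libraries alone.

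No difference between Cyp2b-null and WT mice was called for the 5 tested genes. edgeR called 0 of them for genotype on either diet or for the interaction of diet and genotype in either sex, and DESeq2 also called 0. Of all genes tested, the genotype effect was called in 0.0756% of genes on ND and 0.0227% on CDAHFD in females, and in 0.0371% and 0.0297% in males, and the interaction in 0.0% and 0.00743%. Of the 30 tests, 3 had an unadjusted p under 0.05: Ahr in females on ND and on CDAHFD and Cyp1b1 in males on CDAHFD. In each of these contrasts 759 to 830 of 13226 genes in females and 487 to 1111 of 13460 in males had such a p.

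Ahr was lower in Cyp2b-null than in WT females on both diets, without overlap between the genotypes. On ND the lowest WT female, at 53.2 CPM, was above the highest Cyp2b-null female, at 48.6 CPM, and on CDAHFD the values were 48.7 and 45.1 CPM. The effects were -0.53 ± 0.188 (unadjusted p = 0.0104, adjusted p = 0.706) and -0.51 ± 0.186 (0.0119 and 0.826). Groups did not overlap for 3.55% of all genes on ND and 2.84% on CDAHFD. Neither difference passed the adjusted threshold in any alternative. In males the effects were -0.10 ± 0.166 (adjusted p = 0.93) and -0.29 ± 0.162 (1.0), and the genotypes overlapped, as they did for the other 4 tested genes (3.86% of all genes on ND and 2.54% on CDAHFD did not overlap in males).

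The genotype effect on Cyp1b1 had opposite signs in the sexes but was called in neither. In females it was -1.28 ± 0.747 on ND (adjusted p = 0.902) and -0.53 ± 0.411 on CDAHFD (0.832), and in males 1.63 ± 0.925 (0.685) and 1.13 ± 0.482 (1.0). Males minus females gave 2.92 ± 1.22 on ND and 1.66 ± 0.669 on CDAHFD, with unadjusted p of 0.0222 and 0.0183 and adjusted p of 1.0 for both. In the fits of both sexes, edgeR called 0 of the 6 genes tested for a difference between sexes, in the diet effects or the genotype effects, and DESeq2 called 0. Of all genes, 0.97% and 3.4% were called for the diet effect in WT and in Cyp2b-null mice and 0.00713% for the genotype effect on each diet.

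The other genes of the pathway are given from lists by role. Of 8 genes of the receptor complex and its coactivators, 6 were tested, and 0, 3, 2 and 2 were called lower on CDAHFD in WT females, Cyp2b-null females, WT males and Cyp2b-null males, with 0 called higher, beside 10.2%, 13.9%, 15.0% and 17.1% of all genes called lower. For WT females, 0 of the 6 had an unadjusted p under 0.05 and DESeq2 called 0. The median log2 fold change of the 6 was -0.139, -0.402, -0.273 and -0.285, beside medians of all genes between -0.0229 and 0.0273. The chaperone Hsp90aa1 fell by 0.61, 0.53 and 0.42 in the last 3 of these comparisons (adjusted p = 0.0419, 0.00458 and 0.02), and Hsp90ab1 fell by 0.40 in Cyp2b-null females (0.0224). The coactivator Ncoa2 fell by 0.72 in Cyp2b-null females (0.023) and by 0.35 in Cyp2b-null males (0.0353), and the cochaperone Ptges3 fell by 0.39 in WT males (0.0423). Each of these calls except Hsp90aa1 in WT males was lost in 2 or more fits without 1 library of the groups compared (adjusted p up to 0.188), and none of the 7 was called when counts were scaled by library size alone. That scaling gave 2 other calls, Hsp90ab1 higher in WT males (0.46, adjusted p = 0.00126) and the coactivator Ncoa3 higher in Cyp2b-null males (0.60, 0.00744). It called 5102 (WT) and 5147 (Cyp2b-null) of all 13460 genes higher in males.

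Other genes known as AHR targets were called in both directions with TMM scaling. Of 12, 9 were tested, and 3, 4, 4 and 4 were called higher and 1, 1, 1 and 2 lower, in the same order of comparisons, beside 13.9%, 16.9%, 18.0% and 20.3% of all genes called higher and 10.2%, 13.9%, 15.0% and 17.1% lower. Scaled by library size alone, 4, 5, 6 and 7 were called higher and 0, 1, 0 and 1 lower. With that scaling 3898 and 4002 of 13226 genes in females, and 5102 and 5147 of 13460 in males, were called higher. All genes called lower numbered 492, 669, 583 and 821. Nqo1, a quinone reductase, was called higher in 3 comparisons, by 0.95 ± 0.189 in Cyp2b-null females, 1.25 ± 0.229 in WT males and 1.72 ± 0.230 in Cyp2b-null males, and was 0.49 ± 0.188 in WT females (adjusted p = 0.0608), where leaving out ND-fed WT female replicate 3 (0.0167) or CDAHFD-fed Cyp2b-null female replicate 3 (0.0391), or scaling by library size alone (0.81, 0.00232), gave a call. Gsta1, a glutathione transferase, rose by 3.62, 4.96, 2.10 and 2.10 (adjusted p up to 6.08e-05), although reads of Gsta1 and its near-identical paralog Gsta2 may not be separable. Its ND female libraries were near the floor, with 0 to 16 counts (WT) and 0 to 5 (Cyp2b-null). Their means, 1.36 and 0.912 CPM, were under the 2.07 CPM asked by the filter. Gsta1 thus passed it in females mainly through CDAHFD libraries, which had at least 13.7 CPM. Cd36, a fatty acid transporter that other receptors also control, rose by 1.27, 1.06, 2.76 and 1.86 (adjusted p up to 2.39e-05). Fmo2, a flavin monooxygenase, fell in females by 0.85 (WT, adjusted p = 0.00694, a call lost with scaling by library size alone at 0.0749) and 1.02 (Cyp2b-null, 0.00134). In males it was 0.62 ± 0.454 (0.319) and 0.91 ± 0.467 (0.137), and the latter was called without ND-fed Cyp2b-null male replicate 4 (1.44, adjusted p = 0.0283) and with scaling by library size alone (1.31, 0.0387).

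Most of the tested enzymes that degrade tryptophan, some of whose products bind AHR, were called lower on CDAHFD. Of 13, 11 were tested, and 10, 8, 9 and 9 were called lower, with none higher in these fits, beside 10.2%, 13.9%, 15.0% and 17.1% of all genes. Their median log2 fold change was -0.755, -0.698, -0.68 and -0.888. Scaled by library size alone, 4, 6, 4 and 7 were called lower and 1 higher, Qprt in Cyp2b-null females (0.44, adjusted p = 0.0103). With that scaling 492 and 669 of 13226 genes in females, and 583 and 821 of 13460 in males, were called lower. In Cyp2b-null females it called 4002 genes higher. Qprt, which leads from the pathway to NAD, was called in none of the TMM fits (-0.29 to 0.20), and Acmsd, which diverts an intermediate away from NAD, differed by 0.04 and -0.007 in WT and Cyp2b-null males. Afmid, which releases kynurenine, fell by 2.06, 1.64, 2.35 and 2.32 (adjusted p up to 6.09e-05). Haao, which acts late in the pathway, fell in each, with log2 fold changes of -1.65, -1.05, -1.504 and -1.63, and Ido2, a dioxygenase, fell by 0.82, 0.91, 1.52 and 1.75. Kyat1, a transaminase that makes kynurenic acid, fell by 0.76, 1.15, 1.002 and 1.48. Its call in WT females was lost without ND-fed WT female replicate 1 (adjusted p = 0.154) or CDAHFD-fed WT female replicate 2 (0.0866). The hepatocyte markers given above fell in the same comparisons, and their part in this was not tested.

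**Figure D4:**
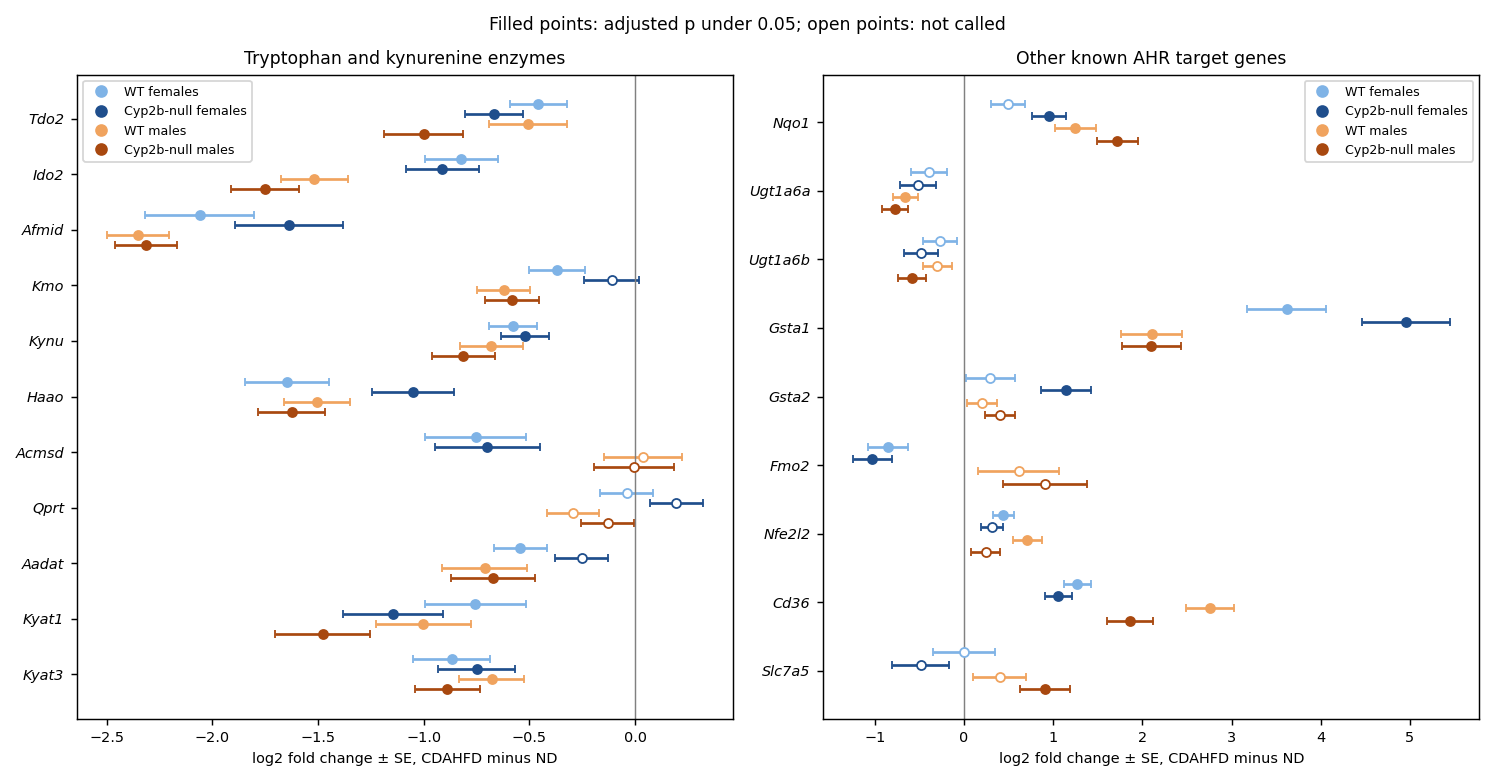
log2 fold changes ± SE for diet (CDAHFD minus ND) of 11 enzymes of tryptophan degradation (left) and 9 other AHR target genes (right), in 4 comparisons, with filled points called at an adjusted p under 0.05. On the left 10, 8, 9 and 9 genes were called lower; on the right genes lie on both sides of 0 with TMM scaling.

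Of 8 other partners of ARNT, 2 were tested. Epas1 (HIF2A) fell by 0.56, 0.98, 0.75 and 0.47 in the 4 comparisons (adjusted p = 0.00706, 3.77e-05, 0.000654 and 0.0175), and Hif1a was not called. The call of Epas1 in Cyp2b-null males was lost without ND-fed replicate 2 (adjusted p = 0.0566) or CDAHFD-fed replicates 2 (0.073) or 3 (0.0553) of that genotype. Of the 4 genes listed as possible electron donors to P450s, 3, 2, 2 and 3 were called lower, beside 10.2%, 13.9%, 15.0% and 17.1% of all genes. Cyb5b fell by 0.93, 0.95, 0.84 and 1.21 (adjusted p up to 0.000174). Cyb5r3 fell in WT females and in both male groups by 0.56, 0.60 and 0.66 (0.0159, 0.000659 and 0.000212), and the P450 reductase Por fell in females by 0.73 (WT, 0.00643) and 0.51 (Cyp2b-null, 0.043). Cyb5a fell in Cyp2b-null males by 0.57 (0.0307). The calls of Cyb5r3 in WT females were lost without ND-fed WT female replicate 3 (0.0573) or 4 (0.0702), and those of Por in Cyp2b-null females and Cyb5a in Cyp2b-null males in 6 of 16 fits each (adjusted p up to 0.123 and 0.117). Of the 4 calls of Epas1 only that in Cyp2b-null females, and of the genes listed as donors only Cyb5b, kept their calls when scaled by library size alone. edgeR called 0 of the 192 tests of genotype or interaction over these lists, with 14 at an unadjusted p under 0.05, and DESeq2 called 1, Cd36 higher in ND-fed Cyp2b-null males. Over all genes, edgeR called at most 0.0756% in any of these contrasts. Its unadjusted p was under 0.05 for 759 to 830 of 13226 genes in females and 487 to 1111 of 13460 in males. DESeq2 called 72 genes for genotype on ND in males, against 5 with edgeR.

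Markers of other cells of the liver were also counted. Of 5 cholangiocyte markers, 2, 3, 2 and 2 were called higher on CDAHFD. Of 6 endothelial markers, 2, 3, 1 and 0 were called lower and 0, 0, 1 and 3 higher, and of 7 lymphocyte markers 3 were tested in females and 2 in males, with 0, 1, 0 and 1 called higher. The shares of all genes were 13.9%, 16.9%, 18.0% and 20.3% higher and 10.2%, 13.9%, 15.0% and 17.1% lower, so 1 call among 6 endothelial genes is near the background. Trem2, a macrophage marker, was listed at 0 in every library. Among Ahr, Arnt and Tiparp, the genes with the most similar pattern over the 32 libraries were Phf6 (r = 0.721, and 0.585 with group means removed), Tjp1 (0.707 and 0.730) and Synj1 (0.691 and 0.656) for Ahr. For Arnt they were Zfp644 (0.819 and 0.787), Mga (0.802 and 0.743) and Rnf6 (0.790 and 0.773), and for Tiparp Ccdc141 (0.728 and 0.620), Gucy1a2 (0.678 and 0.554) and Fgfr2 (0.673 and 0.573). Between Ahr and Arnt themselves r was 0.281, and between Cyp1a2 and Cyp1b1 it was -0.52.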

How the data were processed

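RNA of 32 mouse liver libraries was used. Trimmomatic, GSNAP (build GRCm38.p6) and Subread were the authors' tools for trimming, alignment and counting, and the deposited values are raw counts per gene, 1 table per sex, with settings for strand and for reads that map more than once not given in the sources used here. Samples were grouped by their labels. Genes were filtered with filterByExpr (smallest count 10, smallest total 15) and scaled by TMM, and edgeR 4.0.16 (R 4.3.3) quasi-likelihood tests were fitted to the 16 libraries of each sex, and to all 32 for differences between sexes. P-values were adjusted by the Benjamini-Hochberg method over all genes tested. CPM used 1 scaling over the 32 libraries, and correlations used log2 CPM with a prior count of 1. Genes were named by rule: the 7 genes, up to 4 genes per list with the largest mean change over the diet comparisons among those called, the deleted genes, and the 3 genes most correlated with each tested gene (mean of at least 1 CPM). Transcript lengths were those of GENCODE vM21. Exact binomial intervals are at 95%. The genes and lists were chosen with earlier results of these data known. Alternatives were DESeq2 1.42.0, RLE or library size scaling, no filter or at least 1 CPM in 4 libraries, a fit of the groups compared alone, likelihood ratio tests, a replicate block and leaving out each library. The edgeR test was first run on simulated counts with known changes. Of the listed genes, 1 is not reported here.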

Additional observations from a re-analysis of the deposited data

Results flagged for a closer look

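Single libraries stood apart from the other 3 of their group in 5 of the 56 sets of 4 values (Dixon's test at 95%, which chance alone would pass about 1 time in 20). Tiparp was 12.8 CPM in ND-fed WT female replicate 3, against 8.78 to 9.29 CPM in the other 3, and 2.52 CPM in ND-fed Cyp2b-null male replicate 3, against 7.10 to 7.74 CPM. Cyp1a1 was 0.199 CPM, or 1 count, in CDAHFD-fed WT female replicate 3, against 1.53 to 1.71 CPM. Ahrr was 0.274 CPM (2 counts) in ND-fed WT male replicate 3 and 0.682 CPM (3 counts) in ND-fed Cyp2b-null male replicate 2, each against 0 counts in the other 3 libraries. With the other 3 at 0, Dixon's ratio is 1.0 for any count, so the chance rate above does not apply to Ahrr here.

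The diet effect on 3 of the 12 listed AHR target genes was called different between sexes, each in 1 genotype. The test was that of the difference in the fit of all 8 groups (males minus females, log2). It called 3.4% of all 14020 genes in Cyp2b-null mice and 0.97% in WT mice. For Fmo2 the difference was 1.97 ± 0.535 in Cyp2b-null mice (adjusted p = 0.0328). That call was lost in 8 of the 32 fits with 1 library left out (log2 1.53 to 1.97, adjusted p from 0.0505 to 0.141): without replicates 1, 2 or 3 of ND-fed Cyp2b-null females, replicate 3 of CDAHFD-fed Cyp2b-null females, replicates 1, 2 or 3 of ND-fed Cyp2b-null males, or replicate 3 of CDAHFD-fed Cyp2b-null males. For Gsta1 it was -2.84 ± 0.702 in Cyp2b-null mice (0.0186; without ND-fed Cyp2b-null female replicate 4 it was -2.25, 0.071), and for Cd36 1.51 ± 0.315 in WT mice (0.0103). The Gsta1 means of CDAHFD-fed Cyp2b-null mice were alike, 24.5 CPM in females and 26.0 CPM in males. Their ND means were 0.912 CPM (0 to 5 counts) and 6.33 CPM, so this difference rests on ND female values near the floor.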

How the results depend on the processing

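Of the 14 counts of genes called, 103 values under another setting stayed within 1.5 times the first count, 5 were lower and 2 higher, and with 1 library left out 273 did, 13 were lower and 2 higher. The counts for genotype, interaction and differences between sexes were 0 in every fit, so most unchanged values were zeros. All the changes fell on the counts for diet within a sex. Scaled by library size alone, the count of the 5 tested genes called for diet was 1 in WT females and 1 in Cyp2b-null females (from 2 each), 3 in WT males (Cyp1b1, Ahr and Arnt) and 2 in Cyp2b-null males (Cyp1b1 and Ahr). Of all genes, 4390 and 4671 of 13226 were called in these females and 5685 and 5968 of 13460 in these males. That scaling moved the median diet effect of all genes to 0.316, 0.28, 0.37 and 0.363 in WT females, Cyp2b-null females, WT males and Cyp2b-null males, and raised the share of calls that were higher from 57.6%, 55.0%, 54.6% and 54.3% to 88.8%, 85.7%, 89.7% and 86.2%. Under it the diet effect on Ahr was 0.0731 and 0.0292 in WT and Cyp2b-null females and that on Cyp1a2 0.154 in WT males, opposite in sign to TMM, as was Ncoa2 in Cyp2b-null males at 0.0126. The effects on Cyp1a2 in WT females (-0.46, adjusted p = 0.111) and Tiparp in Cyp2b-null females (-0.37, 0.271) kept their sign and lost their call, and relative to the shifted median they were -0.77 and -0.65. Ahr in WT males was 0.745 (0.000872), or 0.375 above that median. Fitted on only the groups compared, the counts were 1 in WT females, 0 in Cyp2b-null females and 0 in WT males, since Cyp1b1 did not pass the filter on 8 libraries. Tiparp had an adjusted p of 0.0596 there. With 1 library left out, the counts ranged from 1 to 2 in WT females, Cyp2b-null females and WT males. Depth limits Cyp1a1, Ahrr and Cyp1b1 the most.

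With the replicate number as a block, 2, 2, 1 and 1 of the genes were called for diet and 0 for genotype and interaction, and no call on the 7 genes changed. The call of Ncoa2 in Cyp2b-null males was lost with the block (adjusted p = 0.0501). The numbers were not taken to pair libraries, because deviations of same-numbered libraries from their group means correlated at -0.181 to 0.285, over 0.1 in 5 of 48 pairs.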
